A study of Mus musculus with 6 samples.

Results

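The cytochrome P450 enzymes of families 1 to 3 are the main oxidising enzymes for drugs and other foreign chemicals in liver, and their genes were followed here in hepatocytes of SRSF1 knockout and wild type mice. A gene was included where a row of the array table carried its symbol alone and that symbol began with Cyp1a, Cyp1b, Cyp2 followed by a letter, or Cyp3a. Symbols ending in -ps, which mark pseudogenes, were left out, and the brightest row stood for each gene. This gave 34 genes out of 20261 with a symbol of their own in the table. Of these, 33 were bright enough to be tested, among 19130 genes tested in all. The remaining gene, Cyp2d12, read 10.7 to 24.5 in the knockout and 20.6 to 23.2 in wild type and was not tested. Of 61 protein-coding genes in RefSeq (GRCm38.p6) that meet the same rule, 33 had a row of their own and 27 were measured only on rows that carry several symbols, which are described separately. Por, the reductase that passes electrons to these enzymes, belongs to the rule too, but no annotated row carries it and it is not analysed here. The 34 genes include Cyp2d13, whose symbol has no -ps but which RefSeq lists as a transcribed pseudogene.

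The SRSF1HKO group was 3 samples from untreated mice of the C57BL/6 background, 3 months old, that lack SRSF1 in hepatocytes. The WT group was 3 samples from untreated wild type mice of the same background and age. SRSF1 is a splicing factor of the SR family. Total RNA of hepatocytes obtained by liver perfusion, which the labels also call primary cultures, was hybridised to 1 mouse exon array per sample. The driver of the deletion and any time in culture were not given in the sources used here. No label states that each array is a separate animal, and p-values therefore reflect only the variation among these arrays, which may be technical.

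P450 enzymes hold a haem group, sit in the membrane of the endoplasmic reticulum and insert oxygen into small, mostly fat-soluble molecules. Many genes of 1 subfamily lie side by side in clusters, and some of them are close copies of each other. In mouse liver the aryl hydrocarbon receptor drives the Cyp1 genes, and the constitutive androstane receptor (CAR, gene Nr1i3) and the pregnane X receptor (PXR, gene Nr1i2) drive Cyp2b, Cyp2c and Cyp3a genes when foreign chemicals arrive. Several of these genes also differ between male and female mice under the control of growth hormone: Cyp2d9 is higher in males, and Cyp2b9, Cyp2b13, Cyp3a41a and Cyp3a44 are higher in females.

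Promoters in the RefSeq table (GRCm38.p6, 250 bases before to 50 after the start, 5′ to 3′ on the strand of the gene) were matched to 27 of the 34 genes. They are shown for the called genes Cyp2c55, Cyp2d9 and Cyp2j9, so that the sequences can be set beside the changes given below; the other called genes, Cyp2d13 and Cyp2u1, had no entry. Capitals mark TATAA, the core of the TATA box, on the strand of the gene.
Cyp2c55, which was higher in the knockout, chr19:39006769-39007068, plus strand: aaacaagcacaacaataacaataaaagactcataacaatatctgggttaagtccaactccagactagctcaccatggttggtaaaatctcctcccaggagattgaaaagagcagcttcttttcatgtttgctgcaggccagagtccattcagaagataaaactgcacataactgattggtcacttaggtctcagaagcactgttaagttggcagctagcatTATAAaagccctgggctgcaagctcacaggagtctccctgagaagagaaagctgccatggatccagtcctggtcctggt
Cyp2d9, which was higher in the knockout, chr15:82452127-82452426, plus strand: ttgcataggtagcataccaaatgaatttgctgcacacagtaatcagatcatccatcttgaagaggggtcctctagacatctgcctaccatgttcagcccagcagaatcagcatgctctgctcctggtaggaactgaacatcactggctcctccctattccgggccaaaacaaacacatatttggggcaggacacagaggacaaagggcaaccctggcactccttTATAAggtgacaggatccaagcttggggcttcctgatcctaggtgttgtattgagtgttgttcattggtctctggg
Cyp2j9, which was lower in the knockout, chr4:96591436-96591735, minus strand: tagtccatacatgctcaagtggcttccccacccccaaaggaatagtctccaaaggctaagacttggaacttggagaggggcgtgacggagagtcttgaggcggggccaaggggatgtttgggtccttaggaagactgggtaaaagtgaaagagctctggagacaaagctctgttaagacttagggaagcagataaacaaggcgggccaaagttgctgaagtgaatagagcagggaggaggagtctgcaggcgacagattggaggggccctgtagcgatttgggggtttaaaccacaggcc
TATAA began at position -29 from the start in Cyp2c55 and at position -26 in Cyp2d9, and Cyp2j9 had none in this window. It was present in 13 of the 27 promoters, and in 17.5% of all 32851 promoters in the table. The nuclear receptor half-sites AGGTCA and AGTTCA, searched on both strands, were in none of the 3 windows shown. They were in 7 and 1 of the 27 promoters, against 16.3% and 14.0% of all promoters. ATTGAT and TTCNNNGAA, on both strands, were also absent from the 3 windows, and were in 3 and 1 of the 27 promoters, against 7.54% and 8.30% of all promoters. The Cyp2d9 promoter was 83.3% identical to that of Cyp2d10 and 84.5% to that of Cyp2d11, neighbours in the same cluster, and 53.6% to that of Cyp2d26. The Cyp2j9 promoter was 48.4% identical to that of Cyp2j5, 50% to that of Cyp2j6, 52.3% to that of Cyp2j8 and 55.5% to that of Cyp2j12. Promoters of different subfamilies aligned in the same way were 50.4% (Cyp2d9 and Cyp2j9) and 53.2% (Cyp2d9 and Cyp2c55) identical.

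The deposited intensities were not on a common scale, with array medians of 18.6 to 28.8 in SRSF1HKO and 25.6 to 39.8 in WT. The median difference over all genes (SRSF1HKO minus WT) was -0.44 log2 units with the deposited values and -0.01 once quantiles were equalised between arrays, so all intensities below are quantile-normalized unless stated otherwise. Differences are SRSF1HKO minus WT on the log2(intensity + 16) scale, with their standard error (3 against 3 arrays), and understate changes of dim genes. The words rose, fell and called are used of a gene whose adjusted p in limma's test was below 0.05 after Benjamini-Hochberg adjustment over all 19130 genes. On the deposited values the fit gave each gene the variance typical of its intensity. Adjusted p-values on that scale therefore do not reflect a gene's own spread between arrays. The Srsf1 row read 292, 422 and 451 in SRSF1HKO and 517, 510 and 658 in WT, with a difference of -0.53 ± 0.18 (adjusted p = 0.183). That row sums probes over the whole transcript, so it checks the labels only weakly. SRSF1HKO replicate 1 stood apart: Xist, transcribed from the inactive X chromosome, had a deposited intensity of 9.95 in it and of 2122 to 3532 on the other 5 arrays, and the Y-linked Eif2s3y had 130 in it and 2.27 to 7.78 on the others. By these genes it came from a male mouse and the other 5 from females, and sex cannot be told apart from anything else particular to that array. Across genes it correlated at 0.942 and 0.947 (Pearson's r) with the other SRSF1HKO arrays, which correlated at 0.985 with each other. Because P450 genes differ between the sexes, the main results are given with and without that array.

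Hepatocyte markers were bright on every array, with a mean log2 level of 12.8 to 12.9 over 7 of 10 listed genes in SRSF1HKO and 12.9 in WT. Of these the albumin gene Alb fell (-0.39 ± 0.05, adjusted p = 0.0023, and -0.36 ± 0.06 without SRSF1HKO replicate 1). This call rests on the scale used: equalising quantiles gave Alb the same value, 12219, on every WT array, which hides their spread. On the deposited values it read 6937, 10757 and 9491 in SRSF1HKO, against 11022, 10035 and 11053 in WT. There it was not called (-0.26, adjusted p = 0.383), in a test that did not use its own spread either. Among markers of other cells, 1 of 10 measured macrophage markers (11 listed) rose (Cd68, a lysosomal protein of macrophages, by 1.82 ± 0.35, adjusted p = 0.021), and their mean log2 level was 7.22 to 7.33 in SRSF1HKO and 6.37 to 6.95 in WT. Of 4 measured lymphocyte markers (7 listed) the leukocyte phosphatase gene Ptprc rose by 0.72 ± 0.15 (adjusted p = 0.030), and none of 7 endothelial, 8 stellate cell or 4 measured biliary markers (6 listed) was called. Without SRSF1HKO replicate 1, 4 macrophage markers rose (Cd68, Cd5l, C1qc and Adgre1, by 0.64 to 1.40), as did 2 stellate cell markers (Dcn by 1.29 and Reln by 0.68) and Ptprc, and no endothelial or biliary marker was called. Over all genes, 4.17% were called with all arrays (2.74% higher) and 15.0% without SRSF1HKO replicate 1 (9.67% higher). Mean log2 levels were 7.03 to 7.45 in SRSF1HKO and 7.10 to 7.54 in WT for endothelial markers, and 7.71 to 7.88 in SRSF1HKO and 7.38 to 7.48 in WT for stellate cell markers. For biliary markers they were 6.93 to 7.16 in SRSF1HKO and 6.86 to 6.89 in WT, and for lymphocyte markers 6.34 to 6.51 in SRSF1HKO and 6.15 to 6.21 in WT. The part of other cells in the results below was not tested. In such bulk RNA, fewer cells of a type and less RNA per cell cannot be told apart.

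Of the 33 genes tested, Cyp2c55, Cyp2d9 and Cyp2u1 rose, Cyp2d13 and Cyp2j9 fell, and 28 did not pass. That is 15.2% of the genes called, against 4.17% of all genes tested (2.74% higher and 1.42% lower). The same 5 genes passed in the same directions without SRSF1HKO replicate 1, where Cyp2g1 fell as well; there 15.0% of all genes were called (5.35% lower). On the deposited values 1 gene was higher (Cyp2c55) and 3 were lower (Cyp2d13, Cyp2j9 and Cyp2g1), against 7.79% of all genes called. Cyp2c55, Cyp2d13 and Cyp2j9 were called on both scales, against 2.25% of all genes. The median difference over the 33 genes was -0.04, beside -0.01 over all genes, and -0.04 beside -0.02 without that array. Of the 28 genes not called, 26 had a difference of less than 0.5 log2 units in either direction.

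**Figure D1:**
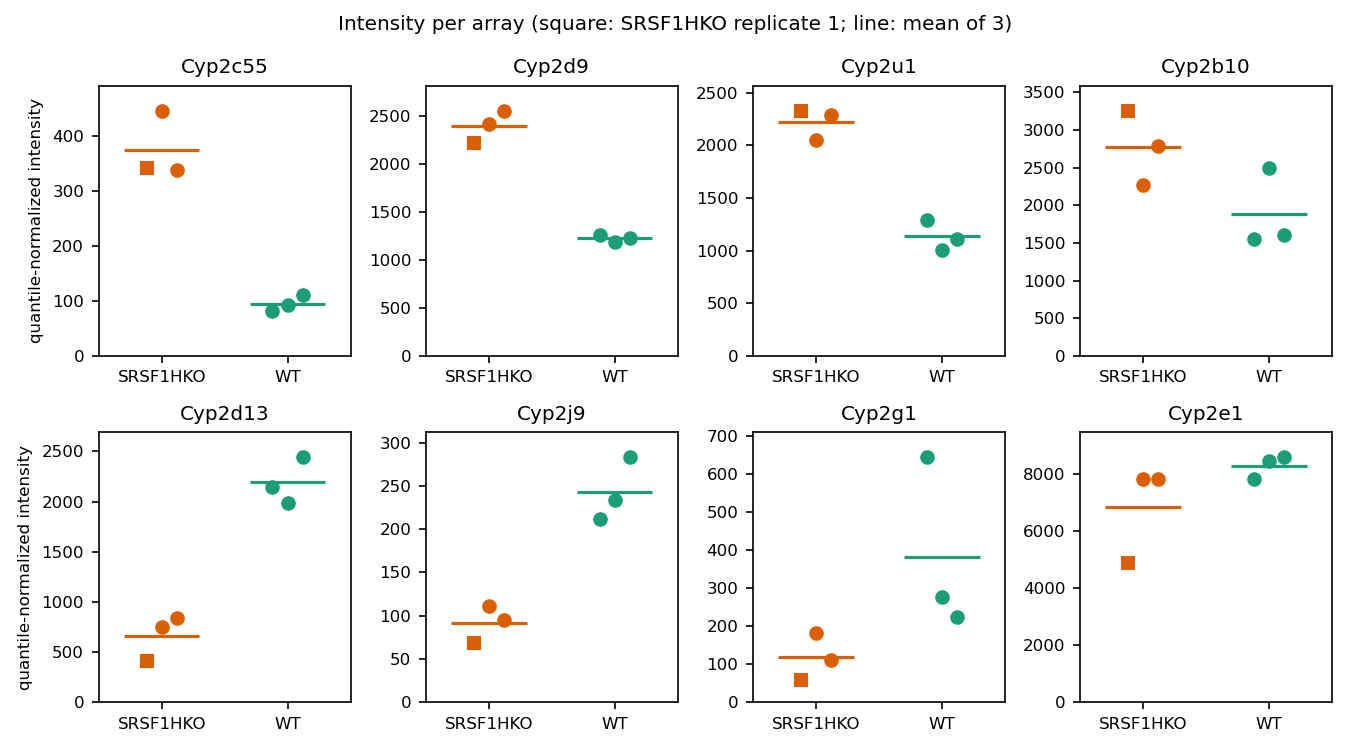
Quantile-normalized intensity on each array (vertical axis, from 0) of 8 P450 genes in SRSF1HKO and WT; points are arrays, squares are SRSF1HKO replicate 1 and lines are means of 3. Cyp2c55, Cyp2d9 and Cyp2u1 lie higher on all SRSF1HKO arrays and Cyp2d13, Cyp2j9 and Cyp2g1 lower. On this scale Cyp2e1 lies below all WT arrays only on SRSF1HKO replicate 1.

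Cyp2c55, a mouse gene induced in liver by activators of CAR and PXR, had the largest increase. It read 342, 446 and 338 in SRSF1HKO, against 81.8, 93.2 and 111 in WT. Every knockout array was higher than every wild type array. Its difference was 1.81 ± 0.16 (adjusted p = 0.00065), 3.51-fold on the log2(intensity + 16) scale, and 1.87 ± 0.15 (adjusted p = 1.8e-05) without SRSF1HKO replicate 1. It was also called on the deposited values, at 1.38 (adjusted p = 9.2e-05). Its mean level over all arrays exceeded that of 63.7% of genes tested.

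Cyp2d9, the testosterone 16-alpha-hydroxylase known for its higher level in male mice, read 2221, 2418 and 2555 in SRSF1HKO, against 1255, 1190 and 1231 in WT. Every knockout array was higher than every wild type array, including the knockout arrays from females. The difference was 0.96 ± 0.09 (adjusted p = 0.00091), and 1.01 ± 0.08 (adjusted p = 1.4e-05) among the 5 female arrays. Cyp2u1, which hydroxylates long-chain fatty acids, read 2330, 2050 and 2288 in SRSF1HKO, against 1294, 1009 and 1107 in WT, also without overlap. Its difference was 0.96 ± 0.12 (adjusted p = 0.0025), and 0.93 ± 0.11 (adjusted p = 0.00022) without SRSF1HKO replicate 1. These 2 genes made up the list drawn up as male-predominant. Both calls rest on the scale used: on the deposited values, where the median gene lay lower in the knockout, the differences were 0.42 (adjusted p = 0.210) for Cyp2d9 and 0.44 (adjusted p = 0.20) for Cyp2u1. With arrays scaled to a common median neither was called (adjusted p = 0.462 and 0.40). A second, dim row of Cyp2u1 had a difference of 0.23, and the median over both rows gave 0.59 ± 0.13 (adjusted p = 0.041).

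Cyp2d13, the transcribed pseudogene of the Cyp2d cluster, had the largest decrease. It read 408, 751 and 838 in SRSF1HKO, against 2150, 1988 and 2444 in WT, and the groups did not overlap. The difference was -1.75 ± 0.23 (adjusted p = 0.0043), and -1.44 ± 0.10 (adjusted p = 7.3e-06) without SRSF1HKO replicate 1, the lowest array. With arrays scaled to a common median the call was lost (-1.73 ± 0.46, adjusted p = 0.127). Cyp2d13 and Cyp2d9, from the same cluster on chromosome 15, thus moved in opposite directions, while Cyp2d22 (0.03 ± 0.08) and Cyp2d26 (-0.13 ± 0.05), both bright, did not pass.

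Cyp2j9, of a subfamily that oxidises arachidonic acid, read 69.1, 112 and 95.5 in SRSF1HKO, against 211, 234 and 283 in WT. Every knockout array was lower than every wild type array, with a difference of -1.27 ± 0.18 (adjusted p = 0.0058), and -1.11 ± 0.13 (adjusted p = 0.00031) without SRSF1HKO replicate 1. The other Cyp2j genes of the same cluster did not pass, and had differences of -0.25 ± 0.08 (Cyp2j5), -0.23 ± 0.13 (Cyp2j12), -0.22 ± 0.18 (Cyp2j13), -0.13 ± 0.22 (Cyp2j6) and 0.17 ± 0.17 (Cyp2j8). Cyp2j5, by far the brightest of them, read 3563, 3792 and 4114 in SRSF1HKO, against 4543, 4749 and 4360 in WT, without overlap (adjusted p = 0.117). Its second, dimmer row had a difference of -0.72.

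Cyp2g1, a steroid-oxidising P450 best known from the olfactory mucosa, varied widely. It read 60.03, 183 and 110 in SRSF1HKO, against 644, 277 and 224 in WT. The groups did not overlap, but WT replicate 1 lay well above the other wild type arrays. The difference of -1.53 ± 0.41 was not called (adjusted p = 0.082), and without SRSF1HKO replicate 1 it was -1.18 ± 0.34 (adjusted p = 0.038).

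**Figure D2:**
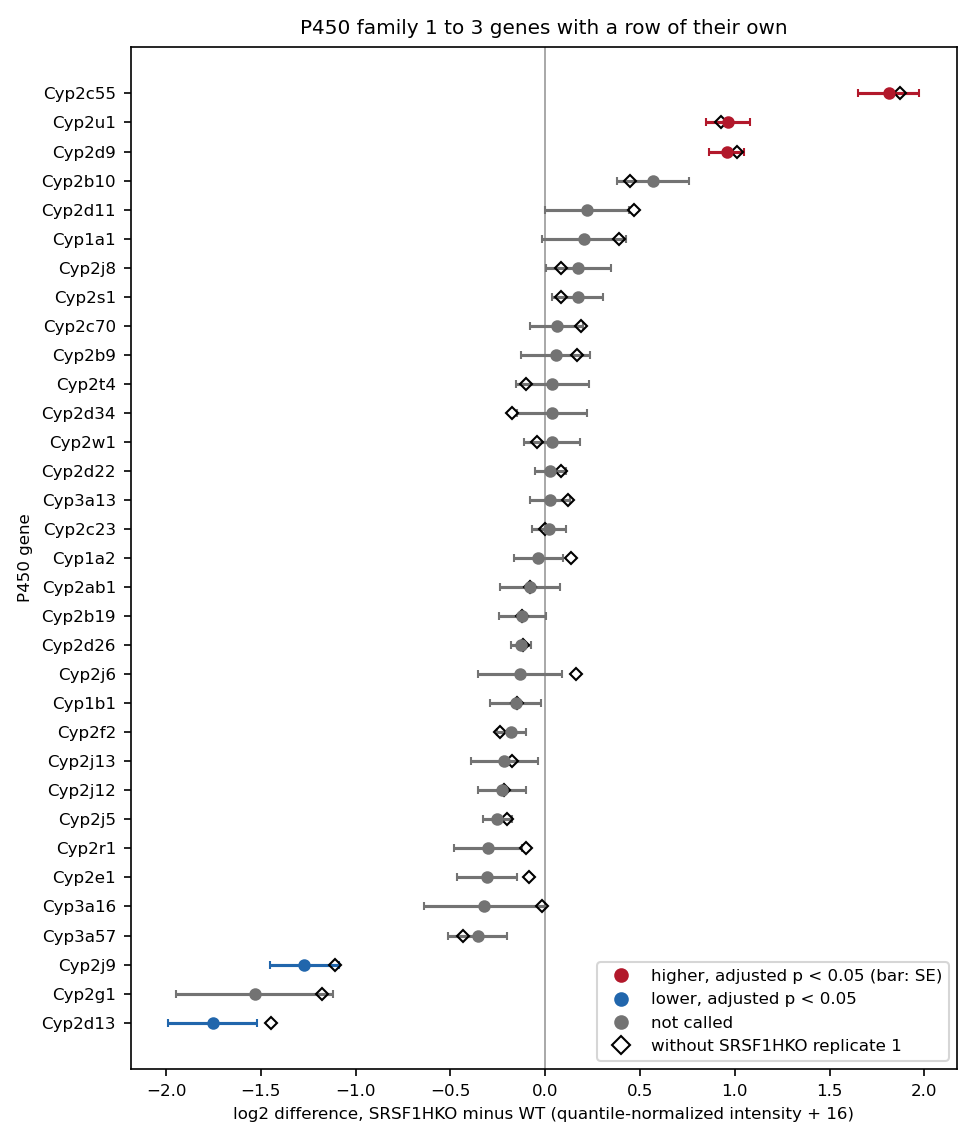
Log2 difference, SRSF1HKO minus WT, of the 33 P450 genes tested (points, with bars of 1 standard error) and the same without SRSF1HKO replicate 1 (open diamonds). Red marks genes called higher, blue genes called lower and grey genes not called; 26 of the 28 grey points lie within 0.5 of 0.

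None of the 10 P450 genes of the highest mean was called, and their differences were -0.31 to 0.57. The genes ranked 11, 12 and 13 by mean level, Cyp2d9, Cyp2u1 and Cyp2d13, were all called. Cyp2f2, which activates naphthalene and is enriched in periportal hepatocytes, read 8088, 6696 and 7663 in SRSF1HKO, against 8722, 8722 and 7923 in WT (-0.18 ± 0.08, adjusted p = 0.311). Cyp2e1, which oxidises ethanol and paracetamol in pericentral hepatocytes, read 4894, 7806 and 7806 in SRSF1HKO, against 7806, 8443 and 8587 in WT. Its low value was that of SRSF1HKO replicate 1, and its difference was -0.31 ± 0.16 (adjusted p = 0.432) with that array and -0.08 ± 0.07 (adjusted p = 0.449) without it. Equalising quantiles gave Cyp2e1 the same value on SRSF1HKO replicates 2 and 3 and WT replicate 1. On the deposited values, where the median gene lay lower in the knockout, it read 3358, 8071 and 7340 in SRSF1HKO. In WT it read 9126, 8832 and 9126 there (-0.63, adjusted p = 0.096). Cyp1a2, which oxidises caffeine and is also pericentral, read 2964, 4306 and 4161 in SRSF1HKO, against 3840, 3772 and 3964 in WT. It too was low only on SRSF1HKO replicate 1, with a difference of -0.04 ± 0.13 (adjusted p = 0.956), and 0.13 ± 0.07 (adjusted p = 0.225) without that array. Of 8 genes listed as pericentral, the remaining 6 were measured only on shared rows.

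Cyp2c70, which makes muricholic acids in mouse liver, had a difference of 0.06 ± 0.14, the epoxygenase Cyp2c23 of 0.02 ± 0.09 and Cyp3a13 of 0.02 ± 0.10. A second, dimmer row of Cyp3a13 read 188, 237 and 229 in SRSF1HKO, against 238, 265 and 297 in WT (-0.28). Cyp2r1, which makes 25-hydroxyvitamin D, had -0.30 ± 0.18 (adjusted p = 0.511). Cyp2b10, the classic target of CAR in mouse liver, read 3259, 2271 and 2786 in SRSF1HKO, against 1555, 2491 and 1612 in WT. The groups overlapped, since WT replicate 2 lay within the range of the knockout arrays, and the difference of 0.57 ± 0.19 was not called (adjusted p = 0.162, and 0.109 without SRSF1HKO replicate 1). The genes of the aryl hydrocarbon receptor were not called: Cyp1a1 was dim, at 23.6, 53.5 and 32.8 in SRSF1HKO and 20.3, 32.9 and 33.2 in WT, and Cyp1b1 had a difference of -0.16 ± 0.13.

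Of the other genes, 18 of the 33 had a mean log2 level under 8, and Cyp2c55 and Cyp2j9 were the called genes among them. The own rows of the female-predominant genes Cyp2b9 (29.0 to 47.9 in SRSF1HKO and 28.0 to 44.0 in WT) and Cyp3a16 (9.67 to 35.6 in SRSF1HKO and 15.7 to 47.8 in WT) were dim, and the other 8 genes of that list of 10 were measured only on shared rows. In all, the groups did not overlap for 11 of the 33 genes, against 21.7% of all genes. Of these, 3 were higher in SRSF1HKO, against a background of 11.6% of all genes, and 8 were lower, against 10.1%. Besides the genes named above, the lower ones were Cyp2d26 (5931 to 6047 in SRSF1HKO and 6492 to 6601 in WT), Cyp2r1, Cyp2j12 and Cyp3a57 (-0.36 ± 0.16).

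SRSF1HKO replicate 1 read lowest of the 6 arrays for 13 of the 33 genes (39.4%), against 28.2% of all genes, and highest for 7 (21.2%), against 31.3%. These shares depend on level. Among the 13 P450 genes of mean log2 level over 10 it read lowest for 7 (53.8%), against 37.9% of all genes that bright. It read highest for 2 of them (15.4%), against 27.1%. Measured against the mean of the other SRSF1HKO arrays, its largest gaps were -1.06 log2 units for Cyp2g1, -0.93 for Cyp2d13, -0.91 for Cyp3a16, -0.88 for Cyp2j6 and -0.75 for Cyp2d11. Cyp2j6 read 559 on it, 1089 and 1000 on the other SRSF1HKO arrays and 881 to 978 in WT. For Cyp2d9 the gap was -0.16 and for Cyp2c55 -0.18. With 1 male array, the part of sex in these gaps was not tested.

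Rows that carry several P450 symbols held several large decreases. Probes on them can bind transcripts of each gene named, so a value is given for the row and not for any gene. The families had 26 such rows, and the brightest row over the filter for each listing of symbols (20 rows) was fitted together with the genes of 1 symbol, a step added after the data had been seen. The same symbols in another order counted as a separate listing, so some sets of genes are counted more than once. Of these 20 rows, 2 rose and 3 fell, against 3.98% of all rows in that fit. Without SRSF1HKO replicate 1, 2 rose and 9 fell, against 14.5% of all rows. That array was the lowest of all 6 on 14 of the 20 rows. The standard error was larger with it than without it on 18 of the 20 rows and smaller on 2. The standard error of the brighter joint row of Cyp2c40, Cyp2c67, Cyp2c68 and Cyp2c69, which was not called with all arrays, was 0.50 with it and 0.10 without it.

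Of the 8 shared rows of the Cyp2c cluster, 2 fell (6 without SRSF1HKO replicate 1). On 7 of them every SRSF1HKO array was lower than every WT array, against 10.1% of all genes of 1 symbol tested. Several of the 8 rows list the same genes in another order, so they do not stand for 8 separate sets of genes. The brighter joint row of Cyp2c38 and Cyp2c39 read 69.9, 301 and 145 in SRSF1HKO, against 605, 978 and 942 in WT. It fell by 2.36 on the log2 scale (SE 0.41, adjusted p = 0.014), and had -1.89 ± 0.26 (adjusted p = 0.00070) without SRSF1HKO replicate 1. The dimmer row of the same genes was not called with all arrays (-1.24 ± 0.33, adjusted p = 0.081). Without SRSF1HKO replicate 1 that row had -0.79 ± 0.12 (adjusted p = 0.0014). A joint row of Cyp2c37, Cyp2c50 and Cyp2c54, genes that oxidise arachidonic acid, read 593, 1416 and 1642 in SRSF1HKO, against 2943, 2998 and 3114 in WT. It fell by 1.42 on the log2 scale (SE 0.31, adjusted p = 0.038), and had -0.98 ± 0.08 (adjusted p = 3.6e-05) without SRSF1HKO replicate 1. The other rows of these genes were not called with all arrays. The brightest had -1.14 ± 0.38 (adjusted p = 0.161), and the dimmest -0.85 ± 0.40 (adjusted p = 0.374). Without SRSF1HKO replicate 1 they had -0.59 ± 0.07 (adjusted p = 0.00035) and -0.27 ± 0.08 (adjusted p = 0.053). The brighter joint row of Cyp2c40, Cyp2c67, Cyp2c68 and Cyp2c69 read 148, 780 and 707 in SRSF1HKO, against 1868, 1556 and 1791 in WT. It was not called with all arrays (-1.94 ± 0.50, adjusted p = 0.072), and was called without SRSF1HKO replicate 1 (-1.20 ± 0.10). The dimmer row of the same genes had -1.19 ± 0.33 (adjusted p = 0.094), and -0.74 ± 0.13 (adjusted p = 0.0034) without that array. The exception in the cluster was the bright row of Cyp2c29, Cyp2c65, Cyp2c66 and the pseudogene Cyp2c53-ps, at 4969, 5734 and 5947 in SRSF1HKO and 5814, 6209 and 6047 in WT (-0.12 ± 0.08).

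In the Cyp2d cluster the joint rows had differences opposite in sign to the own row of Cyp2d9. The row of Cyp2d10, Cyp2d11 and Cyp2d9 read 693, 990 and 830 in SRSF1HKO, against 1271, 1247 and 1305 in WT, and fell by 0.61 on the log2 scale (SE 0.14, adjusted p = 0.043), with -0.48 ± 0.09 (adjusted p = 0.0057) without SRSF1HKO replicate 1. The row of Cyp2d40, Cyp2d10 and Cyp2d9 had -1.34 ± 0.32 (adjusted p = 0.051), and -0.92 ± 0.12 (adjusted p = 0.00049) without SRSF1HKO replicate 1. Which of these genes each row follows was not tested. The increase on the own row of Cyp2d9 therefore holds for the transcripts that row detects.

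A row joint to Cyp2b13, Cyp2b9 and the unrelated genes Dmxl1 and Rnf170 read 1040, 2015 and 2169 in SRSF1HKO, against 3048, 3779 and 3180 in WT. It was not called with all arrays (-1.0 ± 0.24, adjusted p = 0.058) and fell without SRSF1HKO replicate 1 (-0.66 ± 0.10, adjusted p = 0.0011). The joint rows of the Cyp2a genes, which include the coumarin hydroxylase Cyp2a5, did not pass: that of Cyp2a4 and Cyp2a5 had -0.09 ± 0.08 and that of Cyp2a12 and Cyp2a22 -0.05 ± 0.07. A dimmer row of Cyp2a12, Cyp2a22 and Cyp2b23 read 334, 853 and 641 in SRSF1HKO, against 739, 1256 and 1505 in WT. It was not called with all arrays (-0.96 ± 0.34, adjusted p = 0.201) or without SRSF1HKO replicate 1 (-0.59 ± 0.23, adjusted p = 0.124). On the deposited values, where the median gene lay lower, it was called lower (-1.40, adjusted p = 9.2e-06). In the Cyp3a subfamily, whose enzymes oxidise many drugs, 2 of 4 shared rows rose, with and without SRSF1HKO replicate 1. The joint row of Cyp3a25, Cyp3a59 and Cyp3a57 read 1321, 1079 and 1186 in SRSF1HKO, against 834, 797 and 861 in WT, and rose by 0.51 ± 0.11 (adjusted p = 0.041), while on the deposited values its difference was 0.0042. A dimmer row of Cyp3a11, Cyp3a44, Cyp3a41a and Cyp3a41b read 198, 287 and 215 in SRSF1HKO, against 133, 75.1 and 75.3 in WT, and rose by 1.20 ± 0.22 (adjusted p = 0.019), while on the deposited values it was not called (0.77, adjusted p = 0.075). The brightest row of the same genes overlapped between the groups, at 513, 1532 and 1393 in SRSF1HKO and 1160, 222 and 866 in WT (0.74 ± 0.58).

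**Figure D3:**
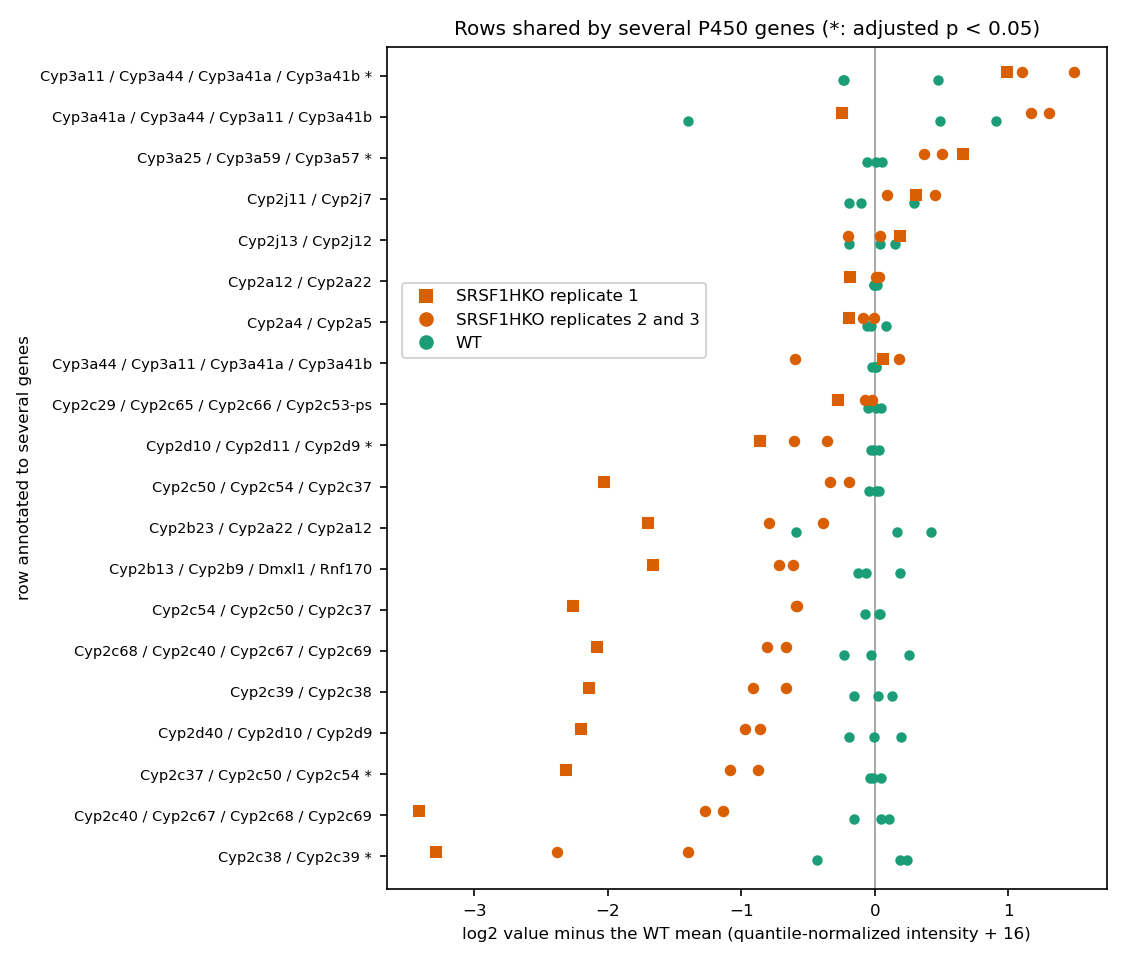
Log2 value of each array minus the WT mean (horizontal axis) for the 20 rows that carry several P450 symbols; squares are SRSF1HKO replicate 1, orange circles SRSF1HKO replicates 2 and 3 and green circles WT, and a star marks adjusted p below 0.05. On 7 of 8 Cyp2c rows all SRSF1HKO arrays lie left of all WT arrays, with replicate 1 farthest left. Several of these rows list the same genes in another order.

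Some receptors that control P450 genes were lower in the knockout. Of 25 measured regulators 3 fell and none rose, against 4.17% of all genes called (1.42% lower); without SRSF1HKO replicate 1, 9 fell and 3 rose, against 15.0% of all genes called. CAR (Nr1i3) read 253, 715 and 694 in SRSF1HKO, against 1442, 1251 and 1786 in WT, a difference of -1.52 ± 0.34 (adjusted p = 0.042), and -1.05 ± 0.13 (adjusted p = 0.00029) without SRSF1HKO replicate 1, its lowest array. PXR (Nr1i2) read 553, 586 and 479 in SRSF1HKO, against 852, 923 and 751 in WT (-0.63 ± 0.13, adjusted p = 0.032), with -0.65 ± 0.11 without SRSF1HKO replicate 1. The fatty acid receptor gene Ppara read 2267, 2078 and 2068 in SRSF1HKO, against 3109, 3419 and 2998 in WT (-0.57 ± 0.09, adjusted p = 0.0072), with -0.61 ± 0.08 without SRSF1HKO replicate 1. The groups did not overlap for any of these receptors. All 3 also passed on the deposited values, but that scale favours lower calls. There the median difference over all genes was -0.44 and 88.0% of all calls were lower.

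Cux2, a repressor known for its higher level in female mouse liver, read 40.5, 45.1 and 61.4 in SRSF1HKO, against 189, 92.0 and 93.8 in WT. Its difference of -1.06 ± 0.25 was just outside the threshold (adjusted p = 0.0503), and was called without SRSF1HKO replicate 1 (-0.97 ± 0.24, adjusted p = 0.022). Onecut1, a liver transcription factor named after its values were seen, read 252, 1094 and 1851 in SRSF1HKO, against 178, 113 and 185 in WT. It was not called with all arrays (2.26 ± 0.58, adjusted p = 0.068) and rose by 3.07 ± 0.22 (adjusted p = 8.9e-06) without SRSF1HKO replicate 1. Bcl6, on the same list, read 447, 183 and 81.5 in SRSF1HKO, against 534, 334 and 636 in WT. It was not called with all arrays (-1.27 ± 0.48, adjusted p = 0.227) and fell without SRSF1HKO replicate 1 (-1.85 ± 0.28, adjusted p = 0.0014). Of other regulators, named for their role, the receptor gene Ahr had 0.39, its partner Arnt 0.33, Rxra 0.06 and Hnf4a -0.01, none of them called with all arrays. Arnt was called without SRSF1HKO replicate 1 (0.39 ± 0.09, adjusted p = 0.013).

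**Figure D4:**
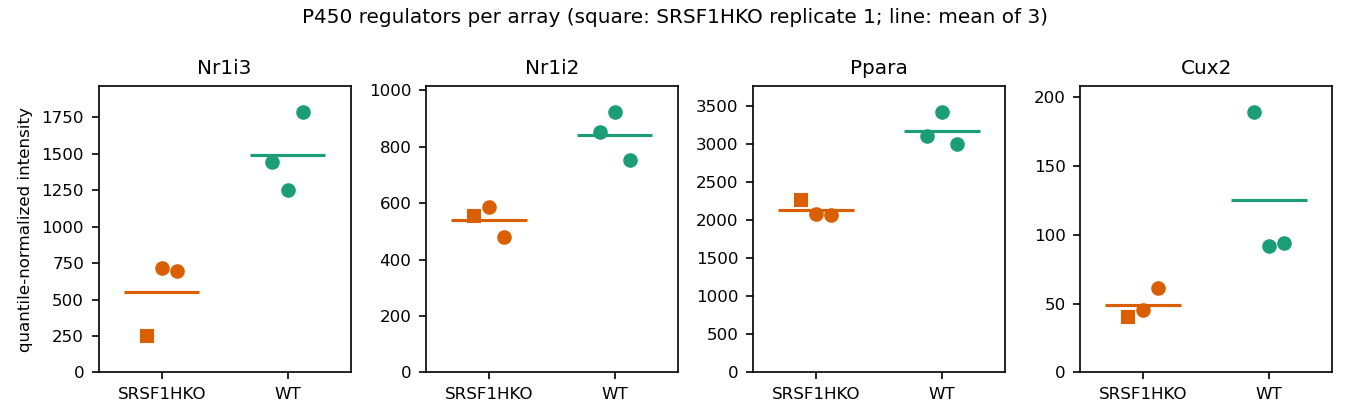
Quantile-normalized intensity on each array (vertical axes, from 0) of Nr1i3, Nr1i2, Ppara and Cux2 in SRSF1HKO and WT; squares are SRSF1HKO replicate 1 and lines are means of 3. All SRSF1HKO arrays lie below all WT arrays for each gene, and SRSF1HKO replicate 1 is the lowest for Nr1i3.

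Few genes that serve P450 enzymes were called. Over all genes 4.17% were called with all arrays and 15.0% without SRSF1HKO replicate 1, so lists this short would hold few calls at those shares. None of 6 electron transfer partners was called, among them Cyb5b (0.19 ± 0.09) and Cyb5r1 (0.68 ± 0.24), and their median difference was 0.01. None of 11 genes of haem synthesis and breakdown was called with all arrays; Alas1, the rate-limiting enzyme of haem synthesis, read 4421, 4007 and 5433 in SRSF1HKO and 2616, 3747 and 2654 in WT (0.63 ± 0.15, adjusted p = 0.059). Without SRSF1HKO replicate 1 it rose by 0.65 ± 0.16 (adjusted p = 0.017), and so did the haem oxygenase gene Hmox1, by 0.66 ± 0.19 (adjusted p = 0.038). Of 13 other oxidising, reducing and hydrolysing enzymes, the carbonyl reductase Cbr1 rose by 0.82 ± 0.15 (adjusted p = 0.019, and 0.32 with an adjusted p of 0.317 on the deposited values) and 12 did not pass, Nqo1 at 0.69 ± 0.16 (adjusted p = 0.052) among them. Without SRSF1HKO replicate 1, 3 of the 13 rose, against 9.67% of all genes higher. They were Cbr1, Nqo1 and Fmo5 (0.42 ± 0.10, adjusted p = 0.020). Of 4 measured targets of the aryl hydrocarbon receptor outside the P450 genes none was called with all arrays. Without SRSF1HKO replicate 1, Tiparp was lower (-0.64 ± 0.11, adjusted p = 0.0033) and Nqo1, which is on both lists, was higher (0.66 ± 0.16, adjusted p = 0.017).

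P450 genes of other families, which mostly act on sterols, bile acids, steroid hormones and fatty acids, numbered 27 among the genes tested. Of these 27 genes 4 fell and none rose with all arrays, against 4.17% of all genes called (1.42% lower), and their median difference was -0.15, beside -0.04 for the 33 genes of families 1 to 3. Without SRSF1HKO replicate 1, 7 fell and 2 rose, against 15.0% of all genes called. The higher ones there were Cyp7a1, the rate-limiting enzyme of bile acid synthesis (1.97 ± 0.25, adjusted p = 0.00042, and 1.35 ± 0.48 with an adjusted p of 0.192 with all arrays), and Cyp26c1 (0.43 ± 0.11, adjusted p = 0.026). On the deposited values Cyp7a1 was also called higher, at 0.89 (adjusted p = 0.011). Among them Cyp17a1, the steroid 17-alpha-hydroxylase, read 1735, 2238 and 3498 in SRSF1HKO, against 5223, 5734 and 4733 in WT (-1.12 ± 0.21, adjusted p = 0.020), with -0.89 ± 0.15 without SRSF1HKO replicate 1. The others were the sterol hydroxylase genes Cyp27a1, Cyp8b1 and Cyp7b1. Whether the families differ was not tested.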

How the data were processed

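The deposited table holds, per the submitters' processing notes and the labels, intensity values summarised by the authors with PLIER over the full set of exons (mm9); the PLIER version, background step and between-array normalization were not given in the sources used here. There are 238609 rows, 1 per transcript cluster, on a linear scale. The platform annotation gives 24343 rows 1 symbol and 1797 rows several.

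Rows were quantile-normalized between the 6 arrays, transformed as log2(intensity + 16), and kept above the 40th percentile of mean log2 value (5.19). The brightest row per gene was compared between genotypes by a linear model without covariates and moderated variances that follow intensity (limma 3.58.1, R 4.3.3), tested on simulated data. The number of arrays limits the precision.

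Samples were grouped by the genotype in the labels. Named genes were all called genes, the 10 brightest, those with the 5 largest gaps of SRSF1HKO replicate 1, members of the sex and zonation lists, and up to 4 genes of each other list by p. Further genes are named for their role or for comparison, after their values were seen. Por is not reported, as no annotated row carries it. The genes, lists and tests were chosen with earlier results of these data known. Alternatives changed the normalization, pseudocount, filter, variance model, row choice and arrays.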

Additional observations from a re-analysis of the deposited data

How the results depend on the processing

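The counts of 3 higher and 2 lower P450 genes were the same with pseudocounts of 1 and 64, with no filter or one at the 60th percentile, with robust variances, without the intensity trend and with the median over a gene's rows, where Cyp2u1 had 0.59 (adjusted p = 0.041). Leaving out each array in turn gave 3 to 3 genes higher and 2 to 3 lower, with a median difference of -0.08 to -0.02; without SRSF1HKO replicate 1, 6 genes were called. On the deposited values 1 gene was higher and the median was -0.48, as the median of all genes was -0.44. There 12 of 25 regulators (11 lower), 10 of 27 genes of other P450 families (9 lower) and 2 of 11 haem genes (2 lower) were called. Over all genes 7.79% were called on that scale, and 6.86% were lower. With arrays scaled to a common median 1 gene was higher (Cyp2c55) and 1 lower (Cyp2j9): Cyp2d13 had -1.73 (adjusted p = 0.127), Cyp2d9 0.93 (0.462) and Cyp2u1 0.95 (0.40), and the cause of the wider errors was not tested.

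Over all genes 797 were called, 34.1% of them lower. The count was 1489 on the deposited values (88.0% lower), 319 with a common median (15.7% lower), and 311 to 2873 when 1 array was left out, the highest without SRSF1HKO replicate 1 and 356, 311 and 343 without WT replicates 1, 2 and 3. Without SRSF1HKO replicate 2 it was 450. No paired analysis was possible because the labels number no replicates: the numbers used here follow the order of the samples, only name the arrays and pair none of them. No value is given for Por, which has no annotated row.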
